A study of Mus musculus with 31 samples.

Results

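The 42 genes described here are Ppara, which encodes the nuclear receptor PPAR-alpha, and genes of fatty acid oxidation, many of them known targets of that receptor. They are 42 of the 16929 genes measured in either tissue of the series. A listed gene was a member when its Ensembl identifier, stripped of its version, carried the listed symbol in the GENCODE M21 annotation. All 42 were in the table of liver, and 39 were in the table of epididymal white adipose tissue (eWAT, the fat pad beside the epididymis), from which Cyp4a10, Cyp4a14 and Acot3 were missing. By role they are the receptor, 16 genes of mitochondrial oxidation, 3 genes with products in both mitochondria and peroxisomes, 7 peroxisomal genes, 3 genes of omega oxidation, 4 acyl-CoA thioesterases, 3 genes of fatty acid uptake and activation, and 5 other targets.

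RNA was sequenced from the liver and eWAT of wild-type C57BL/6 males of an F1 generation at 24 weeks of age. Every animal ate chow after weaning and then the diet LFD from week 6 for 18 weeks, per the labels. Samples are tagged LFD, HFD or HFLFD, written LF, HF and HFLF here. Since all animals ate alike, the tags are read as arms of the paternal line, as worded in the title of the series; the labels do not explain them. Liver had 4 LF, 5 HF and 6 HFLF libraries of 9225373 to 17268415 counts, and eWAT had 4 LF, 6 HF and 6 HFLF libraries of 9278083 to 27230205 counts. Libraries are named by arm and the number in their label, so that LF 1 is the LF library numbered 1. No label says that the numbers stand for separate litters, so p-values measure the spread between these samples.

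PPAR-alpha binds fatty acids and, as a partner of the retinoid X receptor, switches on genes that move fatty acids into cells, activate them to acyl-CoA and oxidise them. In liver this program is known to be strong during fasting. Mitochondria oxidise most chain lengths after the carnitine shuttle brings them in, peroxisomes shorten very long and branched chains, and cytochromes of the Cyp4a family start omega oxidation at the methyl end, whose dicarboxylic products are then shortened in peroxisomes.

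The receptor pair binds a direct repeat of AGGTCA with a single base between the copies. AGGTCANAGGTCA was searched on both strands of the 250 bases before each RefSeq start site on GRCm38.p6, with up to 2 mismatches. Of the members, 34 had an entry, with 39 promoters among them, and 4 of the 39 promoters (10.3%) held a match, against 1063 of 32851 promoters of all genes (3.24%). With at most 1 mismatch the counts were 1 of 39 (2.56%) and 159 of 32851 (0.484%). The 4 stretches shown are all the matches found in promoters of members. Their genes run from one of very high liver level (Fabp1) to one whose order between tissues depends on the scaling (Etfa). Capitals mark the match, and each stretch reads 5′ to 3′ on the strand of its gene.
Fabp1, chr6:71199787-71199849, plus strand, match on the opposite strand with 1 mismatch, 54 bases before the start: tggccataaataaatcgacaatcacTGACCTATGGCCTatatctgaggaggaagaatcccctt
Etfa, chr9:55512283-55512345, minus strand, match on the opposite strand with 2 mismatches, 64 bases before the start: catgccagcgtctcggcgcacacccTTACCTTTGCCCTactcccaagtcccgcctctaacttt
Creb3l3, chr10:81092763-81092825, minus strand, match on the gene's strand with 2 mismatches, 196 bases before the start: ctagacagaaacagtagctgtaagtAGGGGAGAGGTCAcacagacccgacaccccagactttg
Acot4, chr12:84038341-84038378, plus strand, match on the opposite strand with 2 mismatches, ending at the start: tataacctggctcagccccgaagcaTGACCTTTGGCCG
A match is a string of letters and was not tested for binding, and sites farther from the RefSeq starts, in introns or elsewhere, were not searched. The Creb3l3 stretch lies before a RefSeq start but inside the span of the gene in GENCODE M21 (chr10:81084324-81098874).

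In what follows a level is a count scaled to a common library size (CPM) within the tissue, and a difference is a log2 fold change ± its standard error. Genes were called at an adjusted p under 0.05 by edgeR's quasi-likelihood test with Benjamini-Hochberg adjustment over all genes of the tissue. No gene of either tissue passed in any of the 6 comparisons of arms (0% of all genes), so 0 members were called in each of them. Members are described by unadjusted p-values, which do not amount to calls, and read against the share of all genes past the same mark. The tissues carried their own markers. All 20 hepatocyte markers were in the liver table, with a summed level of 126847 to 154647 CPM. All 12 adipocyte markers were in the eWAT table, at 43159 to 59514 CPM. Adipoq and Plin1 were among those missing from the liver counts. The liver counts held 7 of the 12 adipocyte markers, at a summed 160 to 234 CPM, of which Pnpla2 was 87 to 167 CPM. In bulk tissue, fewer cells of a type and less RNA per cell cannot be told apart.

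In liver, Ppara was the member with the smallest p in HFLF against LF, and the third in HF against LF, behind Acaa1a and Slc27a2. Its level was 83.5, 64.1, 62.0 and 61.6 CPM in LF 1, 2, 3 and 6. It was 73.5, 76.9, 85.0, 132 and 116 CPM in HF 1, 2, 3, 5 and 6. In HFLF it ran from 89.0 to 166 CPM with a median of 105. Every HFLF library lay above every LF library, and 3 of the 5 HF libraries lay above the highest LF library. HFLF against LF differed by 0.77 ± 0.20 (adjusted p = 0.639 by edgeR's quasi-likelihood test), and HF against LF by 0.51 ± 0.21 (adjusted p = 1.00 by the same edgeR test). The gene lies at chr15:85734983-85802819 on GRCm38.

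All 42 members had a higher fitted level in HF than in LF liver, with a median difference of 0.27, where the median of all genes was -0.00 and 49.4% of genes were above 0. At an unadjusted p under 0.05, 4 members were higher (1.92% of all genes) and 0 lower (1.68% of all genes). Beside Ppara these were Acaa1a, a peroxisomal thiolase, at 0.27 ± 0.10, Slc27a2, a very-long-chain acyl-CoA synthetase and transporter, at 0.28 ± 0.11, and Cpt1a, the gate of the carnitine shuttle, at 0.29 ± 0.13, each with an adjusted p of 1.00 by edgeR. The members do not vary independently of each other, as shown further on, so 42 of 42 is not 42 separate observations. Without LF 3 the count above 0 was 39, the median 0.16 and 0 members had p under 0.05. Without LF 1 the median was 0.18 and 2 members had p under 0.05, and without HF 5 there was 1. Without LF 2 or LF 6, 11 and 10 members had p under 0.05, with medians of 0.37 and 0.34, and without HF 3 or HFLF 2 there were 7.

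HFLF liver gave the same count, 42 of 42 above LF, with a median of 0.29 against 0.00 for all genes, of which 50.1% were above 0. The comparison shares its LF libraries with that of HF, so it is no second observation of a low LF level. At an unadjusted p under 0.05, 5 members were higher (2.82% of all genes) and 0 lower (2.65%). These were Ppara, Acaa1a at 0.28 ± 0.10, Slc27a2 at 0.30 ± 0.11, Cpt1a at 0.29 ± 0.12 and Acsl1, the main long-chain acyl-CoA synthetase of liver, at 0.62 ± 0.27. Beside Ppara the adjusted p-values by edgeR's quasi-likelihood test were 0.85 to 0.868. Without LF 1 only 2 members had p under 0.05, and without LF 3 or HFLF 3 there were 3. Without LF 2, LF 6 or HFLF 2 there were 14, 15 and 17, and over all 15 removals of a library the median ran from 0.20 to 0.36. Set against HF, the HFLF arm showed little: 25 of 42 members were above 0 (50.9% of all genes), the median was 0.01 and 0 members had an unadjusted p under 0.05 (0.951% of all genes higher, 0.914% lower). The number above 0 ran from 15 without HFLF 5 to 38 without HFLF 2, and without HF 5, 1 member was higher at p under 0.05.

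**Figure D1:**
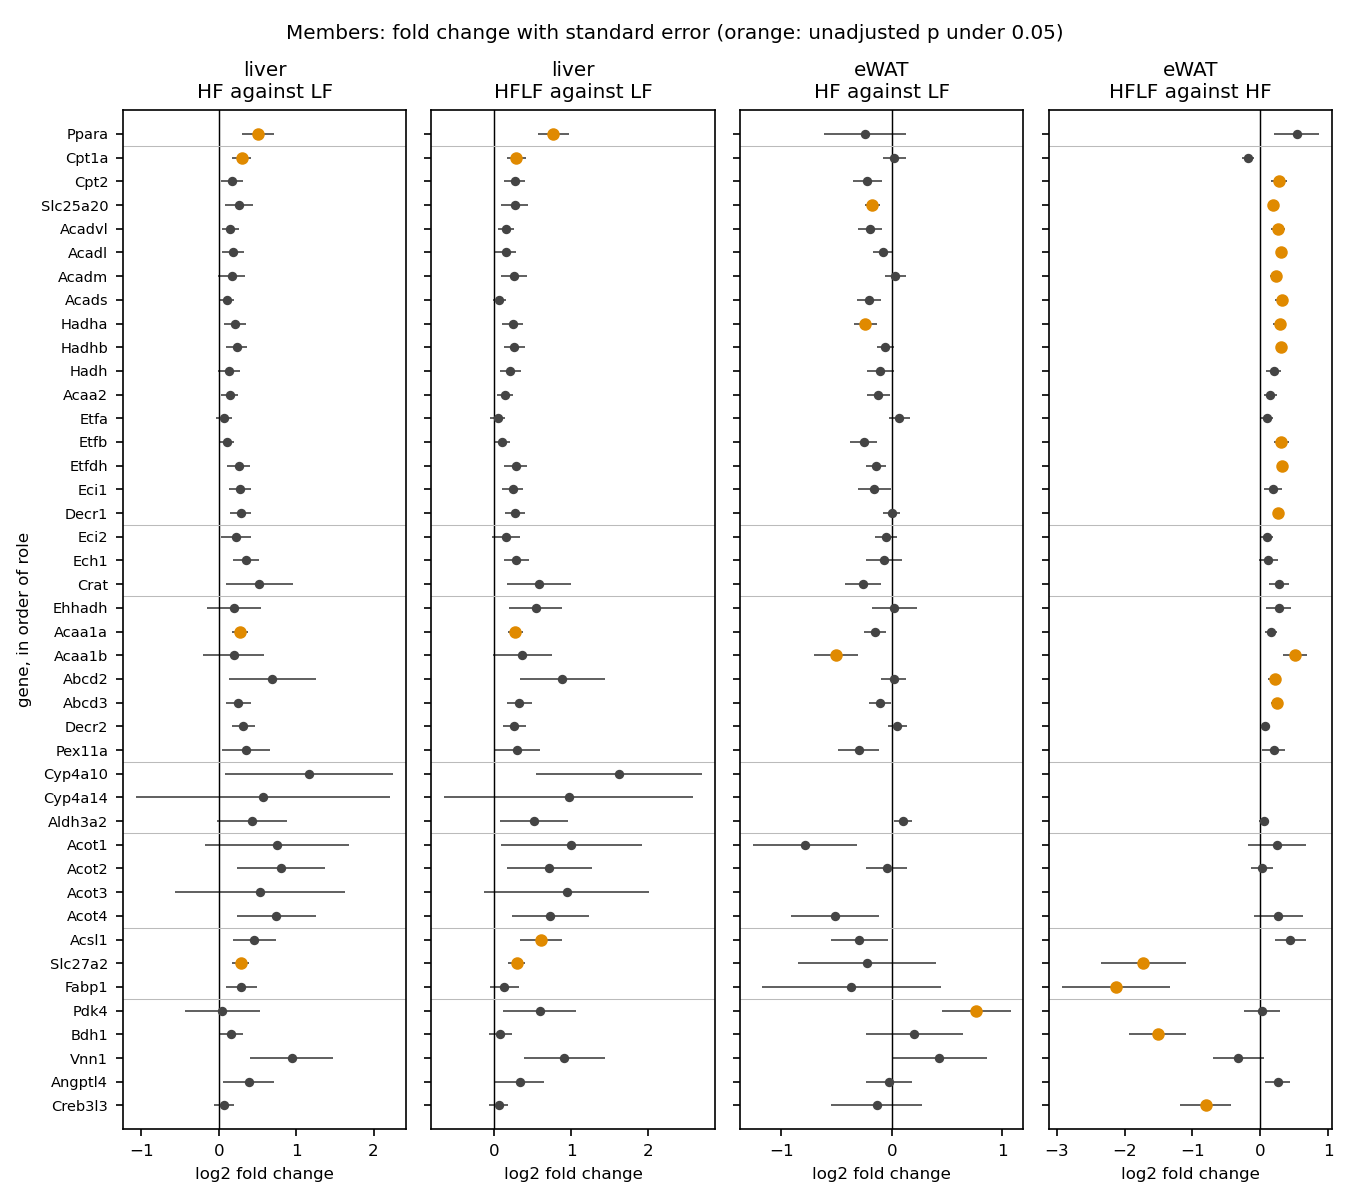
Log2 fold change (points) with its standard error (lines) of each member, in order of role, for HF and HFLF against LF in liver and for HF against LF and HFLF against HF in eWAT; orange marks an unadjusted p under 0.05. In both liver panels all 42 points lie right of 0 with the widest errors in omega oxidation and thioesterases, and in the last panel 15 of 16 mitochondrial genes lie right of 0.

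The mitochondrial genes of liver differed little from library to library and little between arms. Their median difference was 0.17 in HF and 0.24 in HFLF against LF, and each of the 16 was above 0 in both, from 0.07 for the electron transfer flavoprotein subunit Etfa to 0.29 for Cpt1a in HF, and from 0.05 to 0.29 for the same genes in HFLF. Without LF 3 the medians were 0.10 and 0.14, and without LF 2 that of HF was 0.27. Cpt1a was at 528, 632, 589 and 580 CPM in the LF libraries and at 717, 749, 658, 766 and 677 CPM in the HF libraries. In HFLF it ran from 518 to 922 CPM with a median of 717. The HF libraries all lay above the LF libraries, while HFLF 2 lay below all of LF. Cpt2, which rebuilds acyl-CoA inside the mitochondrion, was at 140, 176, 104 and 158 CPM in LF, at 143, 180, 155, 158 and 176 CPM in HF and at 137 to 205 CPM in HFLF (median 175). Its arms overlapped, as they did for the 2 genes that follow.

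Acadm, the medium-chain dehydrogenase of the first oxidation step, was at 232, 371, 228 and 347 CPM in LF, 318, 302, 291, 351 and 387 CPM in HF, and 251 to 478 CPM in HFLF (median 350). Hadha, the hydratase and dehydrogenase subunit of the trifunctional protein, was at 329, 436, 306 and 476 CPM in LF, 435, 451, 389, 499 and 457 CPM in HF, and 358 to 525 CPM in HFLF (median 470). LF 1 and LF 3 were the 2 lowest libraries for Hadha and for Acadm, and HFLF 2 was the lowest of its arm. Hadha and its partner subunit Hadhb lie head to head on chromosome 5, at chr5:30118304-30155162 and chr5:30155248-30184593, on opposite strands. Their annotated ends do not overlap, and strand use in counting is not given in the sources used here, so reads past either end could fall to the other gene. The thiolase Acaa2 had the highest level per length of the mitochondrial genes in liver, at 721 CPM per kilobase of exon, and Hadhb the lowest, at 12.9. The length counts every annotated exon base of a gene. For Hadhb it was 6.595 kilobases, where the longest coding transcript has 2048 bases, so its place depends on the annotation. Over the 15 libraries the 16 genes spanned 1.29-fold (Acads) to 2.17-fold (Slc25a20).

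Peroxisomal genes varied more. Ehhadh, the peroxisomal bifunctional enzyme, was at 107, 242, 114 and 236 CPM in LF, 156, 138, 226, 219 and 264 CPM in HF, and 110 to 413 CPM in HFLF (median 256). Acaa1b, a second peroxisomal thiolase, was at 579, 1371, 364 and 1078 CPM in LF, 582, 837, 935, 1212 and 1272 CPM in HF, and 507 to 1541 CPM in HFLF (median 1078). LF 1 and LF 3 were again below LF 2 and LF 6 for both genes, and the arms overlapped. Acaa1a and Acaa1b share 34% and 35.5% of the 50-base stretches of their transcripts, so the split of reads between them is uncertain. Abcd2, a peroxisomal importer of very-long-chain acyl-CoA, was at 0.929, 15.4, 6.37 and 19.1 CPM in LF, 24.6, 12.5, 10.9, 22.3 and 13.4 CPM in HF, and 10.8 to 25.9 CPM in HFLF (median 21.1). LF 1 was the lowest library for this gene. Abcd3, a second importer, Decr2, a reductase of unsaturated chains, and Pex11a, of peroxisome division, spanned 2.05-fold, 1.95-fold and 3.31-fold. Among the genes of both organelles, the isomerases Eci2 and Ech1 spanned 1.94-fold and 2.03-fold and the carnitine acetyltransferase Crat 5.09-fold, with differences in HF against LF of 0.22 ± 0.19, 0.35 ± 0.17 and 0.53 ± 0.43. The median difference of the 7 peroxisomal genes was 0.27 in HF and 0.33 in HFLF against LF. It was 0.17 in HF without LF 3, and 0.50 in HFLF without LF 6.

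The genes of omega oxidation had the widest spread of any role. Cyp4a14, a fatty acid omega-hydroxylase at chr4:115486200-115496142, was at 0.862, 92.6, 2.69 and 482 CPM in LF 1, 2, 3 and 6. It was at 25.3, 98.6, 16.7, 212 and 722 CPM in HF and at 14.8 to 992 CPM in HFLF (median 113). The highest library was 1151 times the lowest, and LF held both the lowest values and one of the 4 highest. Cyp4a10, its neighbour at chr4:115518264-115533649, was at 4.91, 78.7, 9.12 and 277 CPM in LF, at 58.2, 163, 116, 267 and 436 CPM in HF and at 20.7 to 498 CPM in HFLF (median 254). Against LF, Cyp4a14 differed by 0.57 ± 1.64 in HF and 0.97 ± 1.61 in HFLF, with errors above the differences. Cyp4a10 differed by 1.17 ± 1.09 and 1.62 ± 1.08, with errors close to the size of the differences in HF and smaller in HFLF. Cyp4a10 shares 25% of its 50-base stretches with Cyp4a32 and 15.3% with Cyp4a31, and 0 with Cyp4a14, so part of its count is uncertain. Aldh3a2, the fatty aldehyde dehydrogenase of the same path, spanned 7.09-fold. The median difference of the 3 genes was 0.57 in HF and 0.97 in HFLF against LF. Over removals of a library it ran in HF from 0.16 without LF 3 to 2.77 without LF 6. In HFLF it ran from 0.41 without HFLF 5 to 3.175 without LF 6.

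Thioesterases, which release fatty acids from CoA, spread almost as far. Acot1 was at 4.05, 40.1, 4.62 and 71.2 CPM in LF, 15.6, 29.0, 37.0, 74.9 and 94.97 CPM in HF, and 8.28 to 126 CPM in HFLF (median 46.2). Acot3 spanned 141-fold over the 15 libraries, Acot2 16.1-fold and Acot4 6.63-fold. The 4 genes stand in a row on chromosome 12, from chr12:83987861 to chr12:84060402. Acot1 and Acot2 share 23.7% and 24.5% of their 50-base stretches, so their levels are not fully separable. The median difference of the 4 genes was 0.75 in HF and 0.84 in HFLF against LF, with 0 of them at p under 0.05 in either. A single LF library moved these medians: in HF to 0.41 without LF 1 or LF 3 and 1.585 without LF 6, and in HFLF to 0.515 without LF 1, 0.52 without LF 3 and 1.71 without LF 6.

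Among the other targets, Vnn1, a pantetheinase, was at 8.43, 50.5, 11.1 and 45.5 CPM in LF, 49.3, 67.5, 23.0, 81.9 and 54.5 CPM in HF, and 35.5 to 92.6 CPM in HFLF (median 47.1). LF 1 and LF 3 were below every other library. Pdk4, which restrains pyruvate dehydrogenase when fat is burnt, was low in liver, at 1.79, 7.26, 2.62 and 2.73 CPM in LF, 3.71, 2.65, 2.52, 4.59 and 4.46 CPM in HF, and 1.89 to 10.98 CPM in HFLF (median 3.87). LF 3 and LF 6, far apart for Vnn1, were close for Pdk4, and its HF difference of 0.05 ± 0.49 was -0.19 without LF 1 and 0.58 without LF 2, its highest LF library. Angptl4, a secreted inhibitor of lipoprotein lipase, was at 152, 106, 117 and 188 CPM in LF, 105, 174, 165, 209 and 269 CPM in HF, and 77.4 to 262 CPM in HFLF (median 177). Fabp1, the abundant fatty acid binding protein of hepatocytes whose promoter match is printed above, was at 2767, 4169, 2063 and 2832 CPM in LF, 3252, 3550, 3132, 4260 and 3921 CPM in HF, and 2127 to 4502 CPM in HFLF (median 3267). Fabp1 was lowest in LF 3 and HFLF 2. Slc27a2 and Acsl1, of uptake and activation like Fabp1, spanned 1.58-fold and 3.20-fold. Bdh1, of ketone body metabolism, and Creb3l3, a liver transcription factor, spanned 1.81-fold and 1.57-fold over all libraries, with differences of 0.06 to 0.16 against LF.

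**Figure D2:**
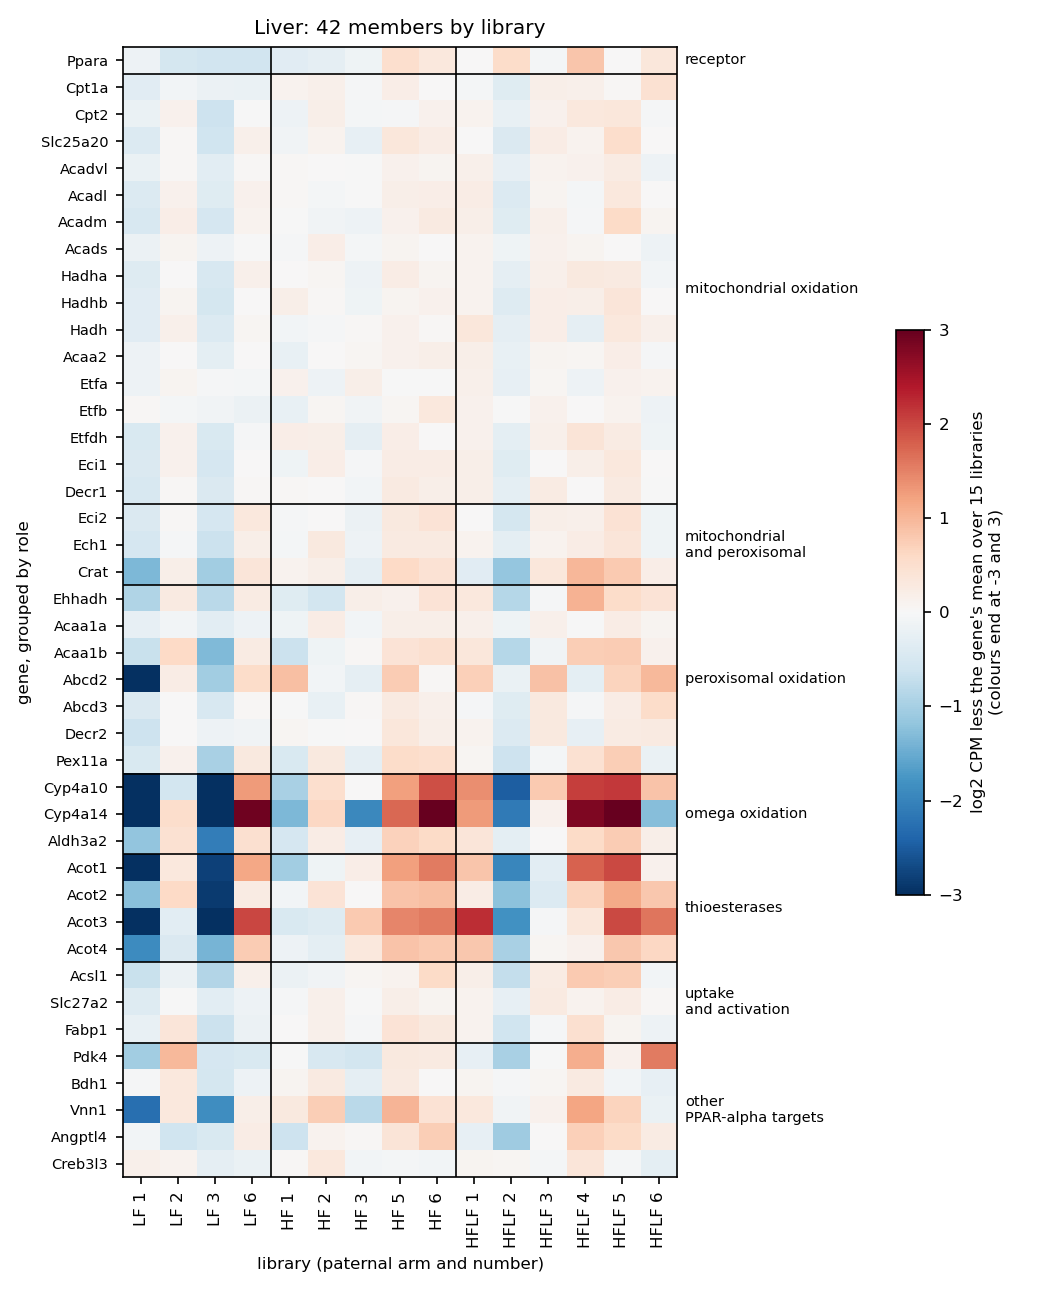
Liver level of each member (one line per gene, in order of role) in each of the 15 libraries (columns, grouped by arm), as log2 CPM less the gene's own mean. LF 1, LF 3 and HFLF 2 are blue (below the mean) through most genes, with a median member at -0.44, -0.51 and -0.37, and the omega oxidation and thioesterase genes carry the strongest colours.

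The spread can be put on a common scale as the standard deviation of log2 CPM within arms. Its median over all liver genes was 0.24, and 95% of genes were below 0.68. Mitochondrial members had a median of 0.23 and a highest value of 0.30, so none was above that mark. The peroxisomal median was 0.50, that of the thioesterases 1.25 and that of omega oxidation 1.85. In all, 11 of the 42 members were above 0.68, among them all 3 omega oxidation genes and all 4 thioesterases. Cyp4a14 had the widest spread of the members, at 2.88.

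The low libraries were the same through most roles. Relative to each gene's mean over libraries, the median member was at -0.44 in LF 1, -0.51 in LF 3 and -0.37 in HFLF 2, where the median of all genes lay between -0.0050 and 0.026 in every library. For the mitochondrial genes these 3 values were -0.35, -0.42 and -0.28, and for omega oxidation -4.51, -3.63 and -2.13. Ppara did not follow in HFLF 2, being at 136 CPM there against an arm median of 105. It lay at -0.15 in LF 1 and -0.57 in LF 3 relative to its mean. The keratins Krt8 and Krt18 were highest in LF 1, at 672 and 520 CPM against at most 224 and 195 CPM in the other liver libraries. They make up nearly all of the mesothelium list's sum, which was 1196 CPM in LF 1 over 6 of 8 markers and 191 to 406 CPM elsewhere. The other 4 markers found were not highest in LF 1, with Msln at 1.13 and Wt1 at 1.33 CPM there, within ranges of 0.278 to 3.75 and 0.0728 to 3.43 CPM. The hepatocyte list summed to 149968, 142357 and 135513 CPM in LF 1, LF 3 and HFLF 2, within the range of the other libraries, but Alb dominates that sum and single markers differed. LF 3 was lowest for the cytochromes Cyp2c29 (99.8 CPM) and Cyp3a11 (102 CPM). HFLF 2 was lowest for Alb (46648 CPM) and highest for the plasma protein genes Hpx (10544 CPM), Fgb (8733 CPM) and Itih3 (2207 CPM). HF 2, whose median member was at 0.066, came next for these genes, at 9002, 8254 and 1770 CPM. Fga, of the same list, was highest in LF 1 (9365 CPM) and HF 1 (9364 CPM). The part of these markers in the low member levels was not tested.

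Within arms the members moved together to differing degrees. After removal of arm means, the log2 CPM of Cyp4a14 over the 15 liver libraries had a Pearson r of 0.925 and a Spearman rho of 0.961 with Cyp4a10. With Acot1 the values were 0.931 and 0.929, and with Hadha, a mitochondrial gene of narrow range, 0.903 and 0.914. For these 3 genes both permutation p-values were 1e-05, the smallest that 100000 permutations can give, and 3.67e-05 after Benjamini-Hochberg adjustment over the 11 correlations of the family. Vnn1 followed at r = 0.865 and rho = 0.864 (adjusted permutation p 8.25e-05 and 0.000275), and Ehhadh at 0.757 and 0.796 (0.00304 and 0.00158). Without LF 1 and LF 6, the 2 libraries farthest from the median of Cyp4a14, r was 0.875 for Cyp4a10, 0.903 for Acot1, 0.881 for Hadha, 0.797 for Vnn1 and 0.707 for Ehhadh.

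Cpt1a stood apart from them. Its r with Cyp4a14 was 0.204 and its rho 0.254 (adjusted permutation p 0.586 and 0.445), and 0.158 for r without the same 2 libraries. Pdk4 gave r = 0.386 and rho = 0.518 (adjusted permutation p 0.245 and 0.0809), with r = 0.405 without them. Angptl4 gave r = 0.571 and rho = 0.557, of which only r passed (adjusted permutation p 0.0454 and 0.0604), with r = 0.657 without them. These genes share libraries and library sizes, and whether the correlations of Cyp4a14 with different genes differ was not tested.

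**Figure D3:**
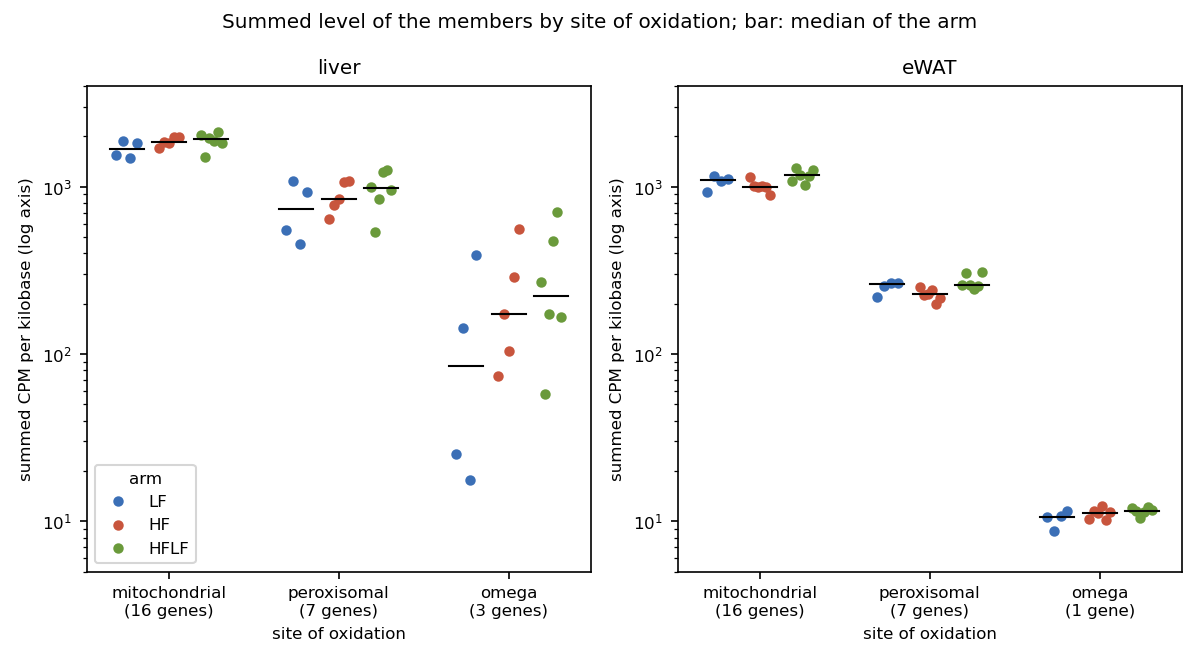
Summed level of the mitochondrial, peroxisomal and omega oxidation members in CPM per kilobase of exon (vertical log axes), in liver and eWAT, with a point for each library coloured by arm and a bar at the median of the arm. The liver omega oxidation points range from 17.6 to 704 within overlapping arms, while the mitochondrial points stay between 1477 and 2119.

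Summed per length, the 3 compartments of liver can be set side by side, though the lengths count every annotated exon base, so the sums depend on the annotation too. The mitochondrial sum was 1681 ± 202 CPM per kilobase in LF (SD, n = 4), 1873 ± 117 in HF (n = 5) and 1887 ± 211 in HFLF (n = 6), and the highest library was 1.44 times the lowest. The peroxisomal sum was 755 ± 300, 885 ± 192 and 969 ± 265 CPM per kilobase, a range of 2.76-fold. The omega oxidation sum was 144 ± 173, 241 ± 197 and 308 ± 240 CPM per kilobase, a range of 40.1-fold. LF had the lowest mean in each compartment, and its libraries overlapped those of the other arms in each.

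In eWAT the same genes were narrow in spread and the arms stood in another order. The mitochondrial sum was 1067 ± 100 CPM per kilobase in LF (SD, n = 4), 1006 ± 77.8 in HF (n = 6) and 1167 ± 101 in HFLF (n = 6). The peroxisomal sum was 252 ± 22.9, 228 ± 18.7 and 272 ± 27.9 CPM per kilobase. Omega oxidation was present through Aldh3a2 alone, at 10.4 to 11.6 CPM per kilobase in the arm means. Within arms the median standard deviation of log2 CPM was 0.15 for mitochondrial and 0.16 for peroxisomal genes, against 0.24 for all eWAT genes.

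HFLF eWAT differed most from HF. Of 39 members, 33 were above 0 (50.3% of all genes) and the median was 0.21, against 0.00 for all genes. At an unadjusted p under 0.05, 14 members were higher (4.86% of all genes) and 4 lower (4.43%). Mitochondrial oxidation carried most of this: 15 of its 16 genes were above 0, 11 had p under 0.05, and the median was 0.26. All 7 peroxisomal genes were above 0, 3 of them with p under 0.05 (Acaa1b, Abcd3 and Abcd2), with a median of 0.21. Cpt1a was the mitochondrial exception at -0.18 ± 0.09. On library totals alone, without TMM factors, 30 of 39 were above 0, 8 and 5 had p under 0.05 and the median was 0.14.

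The 4 members with the smallest p were Hadhb, Etfdh, Acadl and Decr1, all mitochondrial, and the next was Bdh1, which was lower in HFLF. Hadhb, the thiolase subunit of the trifunctional protein, was at 106, 114, 117 and 102 CPM in LF 2, 3, 5 and 6, at 95.4 to 120 CPM in HF (median 103.5) and at 112 to 145 CPM in HFLF (median 129.5). Only HF 2 lay above the lowest HFLF library, and the difference was 0.30 ± 0.07. Etfdh, which passes electrons to ubiquinone, was at 91.9, 112, 99.0 and 102 CPM in LF, 77.7 to 97.7 CPM in HF (median 93.0) and 100 to 134 CPM in HFLF (median 113), with no overlap between HF and HFLF and a difference of 0.32 ± 0.08. Acadl, the long-chain dehydrogenase, was at 272, 318, 304 and 291 CPM in LF, 250 to 309 CPM in HF (median 280) and 297 to 397 CPM in HFLF (median 346), and differed by 0.31 ± 0.08. Decr1, which handles unsaturated chains, was at 183, 197, 200 and 174 CPM in LF, 173 to 200 CPM in HF (median 192) and 201 to 247 CPM in HFLF (median 226), and differed by 0.26 ± 0.07. HF and HFLF did not overlap for Etfdh and Decr1, and for Acadl HF 1 alone lay above the lowest HFLF library.

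Acads differed by 0.32 ± 0.10, Hadha by 0.29 ± 0.09 and Slc25a20, the carnitine carrier of the inner membrane, by 0.20 ± 0.06. Acadm was at 347, 413, 352 and 345 CPM in LF, 320 to 410 CPM in HF (median 364.5) and 391 to 503 CPM in HFLF (median 432). Cpt2 was at 98.8, 138, 142 and 151 CPM in LF, 97.9 to 133 CPM in HF (median 115) and 102 to 164 CPM in HFLF (median 140). Hadha was at 224, 326, 265 and 251 CPM in LF, 198 to 249 CPM in HF (median 227.5) and 239 to 308 CPM in HFLF (median 273). For Hadha and Acadm the arms overlapped at their edges, and for Cpt2 broadly.

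By edgeR's quasi-likelihood test none of these passed adjustment, the adjusted p-values running from 0.381 for Hadhb and Etfdh to 0.534 for Creb3l3 among members with an unadjusted p under 0.05. With DESeq2, an alternative test of the same counts, 4 members passed, Hadhb (adjusted p = 0.0127), Etfdh, Acadl and Decr1 (each 0.0147), among 52 genes. Over removals of each library, 31 to 33 members were above 0, with 11 to 17 of them at p under 0.05 and a median of 0.16 to 0.26; without HF 5, 1 member rather than 4 was lower at p under 0.05. Other cell type markers moved with the comparison. Adipocyte markers (12 of 12 in the table) summed to 43425 to 55231 CPM in HF and 48524 to 59514 CPM in HFLF, and macrophage markers (9 of 10) to 1414 to 2591 and 976 to 1780 CPM. Brown adipocyte markers (6 of 8, without Ucp1 and Elovl3) summed to 65.0 to 96.2 and 82.9 to 122 CPM. Kcnk3 made up most of that sum, at 47.8 to 72.9 CPM in HF and 56.8 to 91.9 in HFLF. Cidea, Cox7a1 and Cox8b reached higher in HFLF than in HF. Pank1 was at 4.92 to 10.5 CPM in HF and 6.35 to 8.69 in HFLF, and Dio2 at most at 1.39 CPM. The part of these cell type markers in the result was not tested. B cell markers were high in HF 3 and HF 5, at 81.7 and 170 CPM against 8.77 to 26.1 in the other HF and HFLF libraries, and testis markers in HF 2 and HF 6, at 163 and 207 CPM against 40.2 to 53.8. With the libraries high in B cell markers left out, 32 of 39 members were above 0 with 8 at p under 0.05 and a median of 0.17, and with those high in testis markers left out the values were 32, 11 and 0.17. In both cases 15 of 16 mitochondrial genes were above 0.

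The HF and LF arms of eWAT differed less, and the sign depended on a few libraries. Of 39 members, 10 were above 0 in HF (49.1% of all genes), with a median of -0.12 against -0.00 for all genes. At an unadjusted p under 0.05, 1 was higher (2.82% of all genes) and 3 lower (4.22%). Pdk4 was at 65.4, 40.6, 57.0 and 76.2 CPM in LF, 68.2 to 192 CPM in HF (median 84.2) and 60.5 to 145 CPM in HFLF (median 102). It differed by 0.77 ± 0.31, and by 0.49 without HF 2, its highest library. Its p was not under 0.05 without HF 2, LF 3 or LF 5. Acaa1b, at 91.0, 79.1, 96.0 and 162 CPM in LF, 67.5 to 88.3 CPM in HF (median 74.3) and 79.3 to 163 CPM in HFLF (median 101), differed by -0.50 ± 0.20, and by -0.23 without LF 6. Slc25a20 differed by -0.18 ± 0.07. Hadha differed by -0.24 ± 0.10, and by -0.12 without LF 3. All 4 had an adjusted p of 0.689 by edgeR's quasi-likelihood test. Without LF 2, 10 members were lower at p under 0.05, and without LF 3, LF 6 or HF 6 there was 1, while without HF 1 there were 6. Marker sums moved with this comparison too. The median of adipocyte markers was 54158 CPM in LF (43159 to 55129) and 46515 in HF (43425 to 55231). That of brown adipocyte markers was 97.2 CPM in LF (87.9 to 102) and 80.4 in HF (65.0 to 96.2). Most of the latter sum was Kcnk3, at 54.6 to 78.8 CPM in LF and 47.8 to 72.9 in HF. Cidea and Cox8b reached higher in LF than in HF. Cox7a1 was at 2.23 to 3.68 and 1.57 to 3.55 CPM, and Pank1 at 4.19 to 10.4 and 4.92 to 10.5 CPM. Mesothelium markers, 8 of 8 in the table, had medians of 138 CPM in LF (120.9 to 239) and 299 in HF (47.4 to 560). Their part in the result was not tested.

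LF 3 and LF 5, with HF 5, were the eWAT libraries highest in hepatocyte markers, at 359, 453 and 583 CPM summed over 18 of 20 markers, against 22.9 to 143 CPM in the other 13. With these 3 left out, a choice made after seeing the data, 21 members were above 0 in HF against LF and the median was 0.015. With the testis-high libraries LF 3, LF 6, HF 2 and HF 6 left out, 19 were above 0 and the median was -0.0072. With the B-cell-high libraries LF 2, HF 3 and HF 5 left out, 12 were above 0 and the median was -0.19. The median was thus lower in HF with all libraries and near 0 under the first 2 of these removals. The first leaves only LF 2 and LF 6 in the LF arm, and the second only LF 2 and LF 5. Relative to each gene's mean over libraries, the median member was at -0.20 in LF 2. It was at 0.11, 0.069 and 0.088 in LF 3, LF 5 and LF 6. The parts of LF 2 and of the markers in these shifts were not tested.

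HFLF eWAT against LF gave 30 of 39 members above 0 (52.1% of all genes) and a median of 0.06, against 0.01 for all genes. At an unadjusted p under 0.05, 5 were higher (3.78% of all genes) and 4 lower (7.06%). The 5 were Decr1 at 0.26 ± 0.08, Hadhb at 0.25 ± 0.08, Acadm at 0.26 ± 0.09, Acadl at 0.22 ± 0.09 and Pdk4 at 0.79 ± 0.31. By edgeR's quasi-likelihood test the adjusted p-values ran from 0.282 for Decr1 and Hadhb to 0.423 for Creb3l3. Without LF 5, 1 member rather than 4 was lower at p under 0.05, and on library totals alone 24 members were above 0 with a median of 0.016. The comparison shares LF with the previous one and HFLF with the one before it. Without LF 2, which was highest in B cell markers at 443 CPM, 15 members were above 0 and the median was -0.02. With the hepatocyte-high libraries left out the median was 0.20 with 29 above 0, with the testis-high libraries left out 0.19 with 32, and with the B-cell-high libraries left out -0.02 with 15.

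The 4 members lower in HFLF eWAT had very low eWAT levels beside those of liver. Fabp1 was at 1.08, 7.63, 8.74 and 1.20 CPM in LF 2, 3, 5 and 6, at 0.262 to 11.01 CPM in HF (median 2.71) and at 0.0713 to 2.31 CPM in HFLF (median 0.485). Its highest values were in HF 5, LF 5 and LF 3, the 3 libraries highest in hepatocyte markers, and its lowest HFLF value was under the 0.11 to 0.323 CPM that 3 counts are worth. The difference against LF was -2.50 ± 0.86, and -0.48 with those libraries left out. Against HF it was -2.13 ± 0.80, and -1.34 with them left out. Slc27a2 differed by -1.95 ± 0.67 against LF and -1.72 ± 0.62 against HF, and by -0.84 and -1.11 without those libraries. Bdh1 differed by -1.31 ± 0.47 and -1.51 ± 0.42, and by -1.16 and -1.36 without them, so it moved least of the 4. Creb3l3 differed by -0.94 ± 0.42 and -0.80 ± 0.38, and by -0.51 and -0.59. Against LF, 0 of the 4 had p under 0.05 with the 3 libraries left out. Against HF, Bdh1 alone did. Leaving these libraries out did not even out hepatocyte markers between the arms. Their sum was 97.9 and 86.7 CPM in LF 2 and LF 6, and 109, 121, 125, 24.5 and 116 CPM in HF 1, 2, 3, 4 and 6. It was 143 CPM in HFLF 1 and 22.9 to 43.6 CPM in the other HFLF libraries. The part of the markers in the remaining differences was not tested.

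**Figure D4:**
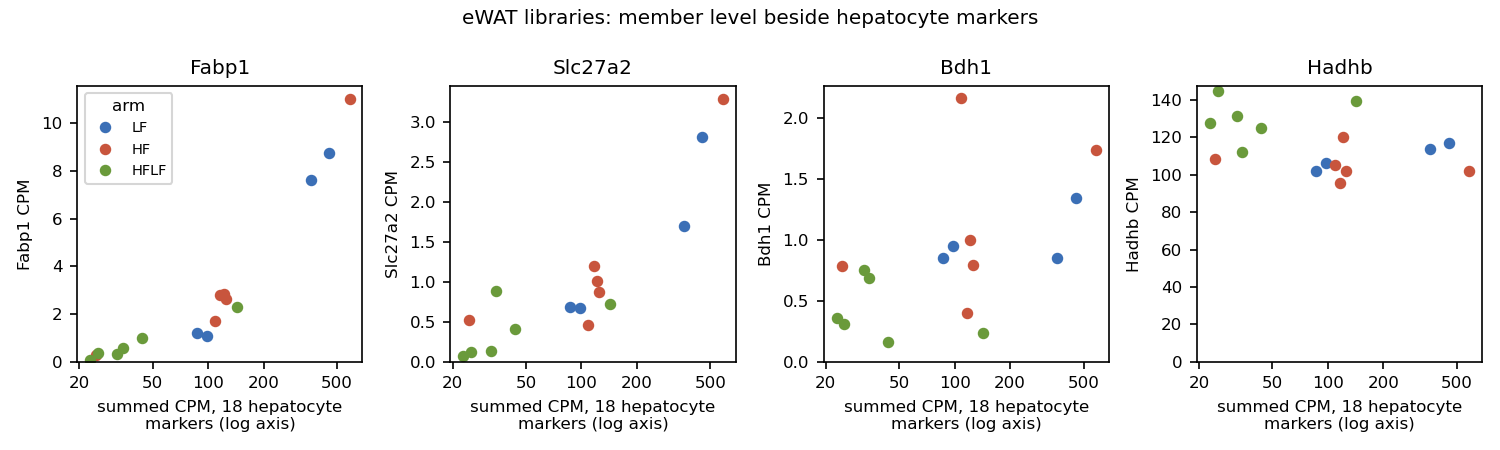
Level in CPM (vertical axes) of Fabp1, Slc27a2, Bdh1 and, as a mitochondrial gene, Hadhb in each of the 16 eWAT libraries, against the summed CPM of hepatocyte markers in that library (log axis), with points coloured by arm. LF 3, LF 5 and HF 5 lie at the right, at 359 to 583 CPM of markers, and hold the highest Fabp1 and Slc27a2 values, while the Hadhb points of HFLF lie at 112 to 145 CPM across low and middle marker levels.

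Ppara itself was low in eWAT, at 1.49, 3.29, 5.81 and 3.504 CPM in LF, 2.003 to 3.66 CPM in HF (median 3.05) and 1.47 to 6.56 CPM in HFLF (median 4.56). Its differences were -0.24 ± 0.37 in HF against LF and 0.54 ± 0.33 in HFLF against HF. The first was 0.12 without LF 5, -0.16 without HF 2 and -0.50 without LF 2, so that a single library turned its direction. Angptl4 was at 711, 407, 530 and 797 CPM in LF, 485 to 790 CPM in HF (median 593) and 446 to 931 CPM in HFLF (median 711). Vnn1 was at 11.9, 7.42, 26.2 and 18.6 CPM in LF, 12.5 to 36.0 CPM in HF (median 20.3) and 6.97 to 26.7 CPM in HFLF (median 20.5). The arms overlapped for both. Ehhadh was at 40.3, 75.4, 60.1 and 40.5 CPM in LF, 34.8 to 67.0 CPM in HF (median 60.3) and 48.1 to 77.6 CPM in HFLF (median 67.9). Cpt1a was at 132, 112, 138 and 142 CPM in LF, 110 to 156 CPM in HF (median 134) and 98.6 to 128 CPM in HFLF (median 120). Acot1 was near the limit of detection at 0.558 to 4.77 CPM, against which its liver values stood up to 126 CPM. Acot2 and Acot4 spanned 2.15-fold and 4.11-fold and Aldh3a2 1.42-fold over the 16 libraries. Abcd2 was at 475, 540, 610 and 456 CPM in LF, 430 to 590 CPM in HF (median 541) and 562 to 730 CPM in HFLF (median 587).

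Between tissues the differences were far larger than between arms. Over the 12735 genes in both tables, 33 of the 39 members were called higher in liver (42.6% of all genes) and 5 higher in eWAT (42.9% of all genes), by edgeR's quasi-likelihood test at an adjusted p under 0.05. The median member was 1.61 higher in liver, against 0.00 for all genes. The largest differences were those of Slc27a2 at 11.62 ± 0.30, Fabp1 at 11.12 ± 0.48, Creb3l3 at 9.62 ± 0.18, Bdh1 at 9.35 ± 0.18 and Acot1 at 5.73 ± 0.48. On the scale of both tissues together, Fabp1 was at 4472 ± 961 CPM in liver (SD, n = 15) and 2.27 ± 2.73 CPM in eWAT (n = 16), and Ppara at 131 ± 41.2 and 2.94 ± 1.28 CPM, a difference of 5.41 ± 0.18. Both peroxisomal thiolases (Acaa1b by 4.08 ± 0.19) and the bifunctional enzyme Ehhadh (2.57 ± 0.17) were called higher in liver.

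Members higher in eWAT were Abcd2 at -4.47 ± 0.24, Pdk4 at -3.69 ± 0.23, Crat, carnitine acetyltransferase, at -1.42 ± 0.17, Angptl4 at -1.21 ± 0.15 and Acot2, a mitochondrial thioesterase, at -0.89 ± 0.21. Abcd2 was at 21.7 ± 9.99 CPM in liver and 452 ± 58.5 in eWAT, so the peroxisomal importers split, since Abcd3 was 3.38 ± 0.09 higher in liver. Acsl1 was not called, at 0.23 ± 0.15 (adjusted p = 0.161 by edgeR's quasi-likelihood test). The smallest called difference was that of Ech1, at 0.20 ± 0.09 (adjusted p = 0.0435 by the same test).

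The 16 mitochondrial genes were all called higher in liver, by 0.29 to 3.44, but the low end depends on how the tissues are scaled. On library totals alone the median of all genes moved to -0.73, and 8 members that were above 0 fell below it (Etfa, Eci1, Hadh, Acadm, Acadl, Hadhb, Acsl1 and Ech1). For these 8 the direction between tissues depends on the scaling, whereas it was the same under both scalings for Acaa2 at 3.44 ± 0.07, Cpt1a at 3.13 ± 0.07 and the other 29 members. With the size factors of DESeq2 the median of all genes was 0.02 and no member changed sign.

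**Figure D5:**
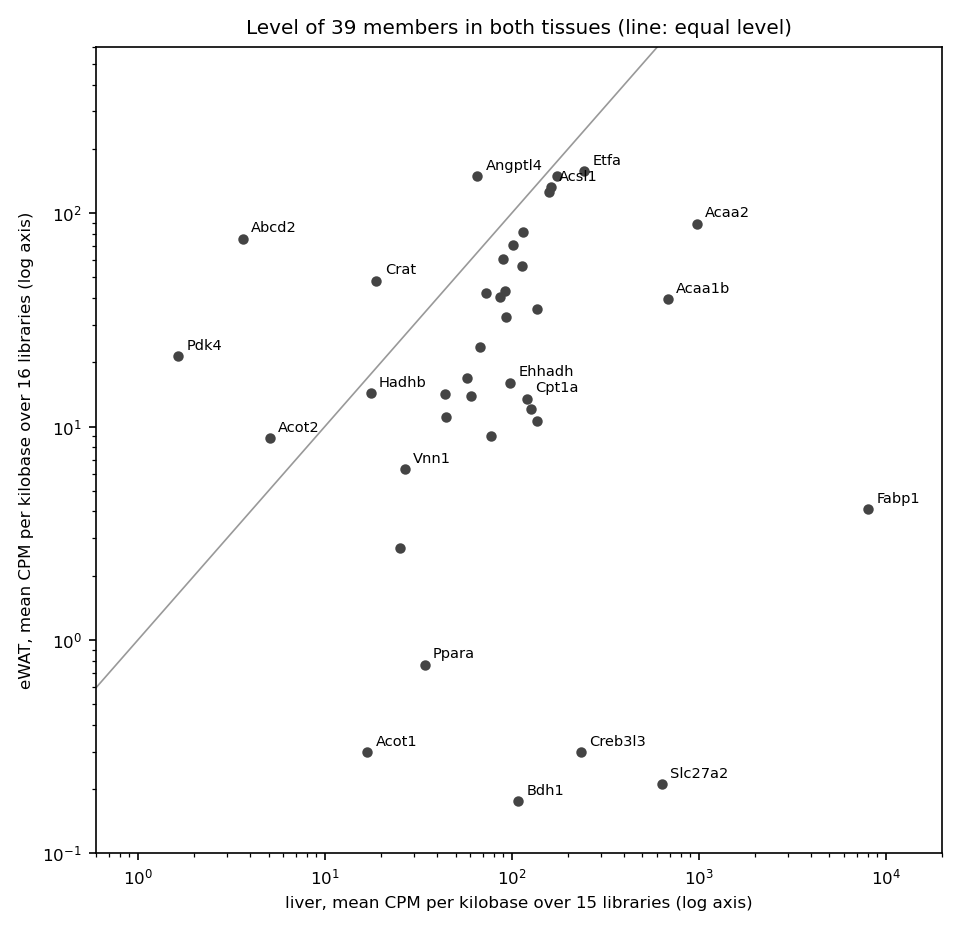
Mean level of the 39 members found in both tables in liver (horizontal log axis, 15 libraries) against eWAT (vertical log axis, 16 libraries), in CPM per kilobase of exon on a joint scale; the line marks equal levels. Abcd2, Pdk4, Crat, Angptl4 and Acot2 lie above the line, and Slc27a2, Fabp1, Creb3l3 and Bdh1 lie far to the right and low.

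Whether an arm effect differed between liver and eWAT was tested as an interaction of tissue and arm. Its values are the signed difference in liver less that in eWAT, so larger here means higher with its sign. By edgeR's quasi-likelihood test 0 members and 0% of all genes were called in any of the 3 interactions. For HF against LF, 7 members had an unadjusted p under 0.05 (4.88% of all genes), led by Acaa1a, whose difference was 0.41 ± 0.14 larger in liver (adjusted p = 0.956), and Hadha at 0.43 ± 0.18; all 7 were larger in liver. For HFLF against LF, 5 members did (5.84% of all genes), led by Slc27a2 at 2.27 ± 0.61 (adjusted p = 0.475). DESeq2 called Slc27a2 and Bdh1 in this interaction (each at adjusted p = 0.0267), among 23 genes. For HFLF against HF, 7 members did (4.94% of all genes), led by Bdh1 at 1.52 ± 0.40 (adjusted p = 0.716). Of those 7, Slc27a2, Fabp1, Creb3l3 and Bdh1 had positive values because they were lower in HFLF eWAT, by -1.72, -2.13, -0.80 and -1.51. Their liver differences were 0.02, -0.16, -0.01 and -0.07. Acads, Acadl and Etfb had the larger difference in eWAT. The 4 genes lower in HFLF eWAT are those of very low eWAT level described above.

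Where a number and arm occur in both tissues, the libraries may come from the same animal, which no label states. Over the 14 such pairs, after removal of arm means, liver and eWAT levels gave Pearson r of -0.311 for Pdk4, 0.119 for Angptl4 and -0.175 for Cpt1a, and Spearman rho of -0.182, 0.27 and -0.209. None passed (adjusted permutation p 0.385, 0.686 and 0.615 for r, and 0.532, 0.445 and 0.521 for rho). Without the 2 pairs farthest from the median of the liver level, r was -0.17, 0.46 and -0.174.

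Other genes of the pathway, listed by role and not members, gave counts as follows. In liver, 65 of 77 were above 0 in HF against LF with a median of 0.15, and 61 in HFLF against LF with a median of 0.14, where 49.4% and 50.1% of all genes were above 0. At an unadjusted p under 0.05, 9 and 10 were higher, beside 1.92% and 2.82% of all genes, and 0 lower, beside 1.68% and 2.65%. In HFLF against HF, 47 were above 0 (50.9% of all genes) and 0 had p under 0.05 (0.951% of all genes higher, 0.914% lower). Acsm3, a medium-chain synthetase, was 0.46 ± 0.10 higher in HFLF than LF, and Acad10, of the acyl-CoA dehydrogenase family, 0.55 ± 0.15 higher in the same comparison. Fgf21, a hormone that PPAR-alpha is known to induce, ran from 0.929 to 26.4 CPM with arms overlapping, and differed by 0.20 ± 1.02 in HF. Ppargc1a, a coactivator of the receptor, and Pparg, its relative in fat, differed in HF against LF by 0.11 ± 0.31 and 0.39 ± 0.39.

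In eWAT, 58 of the 72 listed pathway genes were above 0 in HFLF against HF (50.3% of all genes) with a median of 0.12, and at p under 0.05 there were 10 higher (4.86% of all genes) and 4 lower (4.43%). Acad9, a dehydrogenase also needed to assemble respiratory complex I, was at 43.2 ± 4.01 CPM in HF (SD, n = 6) and 56.0 ± 4.59 in HFLF (n = 6), 0.38 ± 0.08 higher. Esrra, a nuclear receptor that drives oxidative genes, was -0.37 ± 0.12 in HF against LF. Apoa4, a lipoprotein gene of liver and intestine, was -3.40 ± 1.02 in HFLF against LF. It ran from 0 to 0.558 CPM in HFLF, at or near the floor, so that its fitted size depends on the prior count. Its highest values, 4.92, 4.03 and 1.66 CPM, were in HF 5, LF 3 and LF 5, the libraries highest in hepatocyte markers. Their part in the difference was not tested. Pparg was at 205 ± 18.2 CPM in HF and 210 ± 30.7 in HFLF, a difference of 0.03 ± 0.11. Fgf21 differed by 0.59 ± 0.48 and Ppargc1a by 0.04 ± 0.34. For HF and HFLF against LF, 29 and 45 of the 72 genes were above 0, beside 49.1% and 52.1% of all genes. By edgeR 0 of the pathway genes passed adjustment in any arm comparison of either tissue, the smallest adjusted p being 0.263 for Acad9.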

How the data were processed

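The submitters' processing notes name STAR as the aligner and GRCm38.p6 as the build. Which version, counting tool, annotation and strand setting were used is not given in the sources used here. Both tables used hold whole-number counts per gene that the authors deposited after leaving out genes of low CPM, 13677 genes in liver and 15987 in eWAT. Deposited RPKM values were not used, because the lengths they imply differ between samples of the same gene. Columns were matched to samples by name, and symbols, coordinates and exon lengths came from GENCODE M21 (13667 liver and 15974 eWAT identifiers had a symbol).

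Counts were fitted with edgeR 4.0.16 in R 4.3.3, with TMM size factors and filterByExpr, which removed 0 genes. All libraries of a tissue entered 1 robust quasi-likelihood model with a term for each arm (12 and 13 residual degrees of freedom), and p-values were adjusted over all genes by Benjamini-Hochberg at 0.05. Liver and eWAT were compared in 1 fit of 31 libraries and 12735 genes. Library totals ran from 9225373 to 27230205 counts, so that 3 counts, the floor used for a gene not detected, were worth 0.174 to 0.325 CPM in liver and 0.11 to 0.323 CPM in eWAT; floors cover counting error only. Log2 CPM used a prior count of 2. Alternatives were DESeq2 1.42.0, limma 3.58.1 voom, other size factors and filters, fewer samples and a replicate block. The scripts were tested on simulated counts with known changes.

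The members and lists were chosen with earlier results of these data known, as were the genes to be named. Values in every library are given for 15 members chosen by role, fold changes for up to 8 members per comparison with an unadjusted p under 0.05, and, of the pathway genes, those of smallest p per tissue and a few known ones; some of them are not reported here. Promoter sequences are from RefSeq.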

Additional observations from a re-analysis of the deposited data

Results flagged for a closer look

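In groups of 4 to 10 libraries, a level was singled out when its gap to the nearest other library, divided by the range of the group, passed Dixon's 95% critical value. Of 84 groups examined (15 members in liver and 13 in eWAT, in 3 arms each), 7 passed, where chance gives about 5% of groups. In liver they were Ppara in LF 1, at 83.5 CPM against 61.6 to 64.1 in the other LF libraries, and Cyp4a14 in HF 6, at 722 CPM against 16.7 to 212.

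In eWAT, Acadm in LF 3 was at 413 CPM against 345 to 352 in the other LF libraries. Pdk4 in HF 2 was at 192 CPM against 68.2 to 106 in the other HF libraries, and Fabp1 in HF 5 at 11 CPM against 0.262 to 2.82. HF 5 was also the eWAT library highest in hepatocyte markers (583 CPM), and HF 2 was among the libraries high in testis markers (163 CPM); the part of either in these levels was not tested. In HFLF, Cpt1a was at 98.6 CPM in HFLF 3 against 118 to 128, and Abcd2 at 730 CPM in HFLF 6 against 562 to 624.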

How the results depend on the processing

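By edgeR, 0 members and 0 genes were called in each of the 6 arm comparisons. DESeq2 called 1 gene in liver HF against LF, 11 in HFLF against LF, and in eWAT 12 in HF against LF, 69 in HFLF against LF and 52 in HFLF against HF, of which 4 were members; in the interaction for HFLF against LF it called 23 genes and 2 members. Limma voom gave 11 members at unadjusted p under 0.05 in HF and in HFLF against LF liver, where edgeR gave 4 and 5. Leaving out each library in turn, genes called ran from 0 to 13 in eWAT HFLF against LF (13 without LF 5), and from 0 to 1 in the interactions for HFLF against LF and HFLF against HF. Between tissues, library totals alone gave 12 members called higher in eWAT (5 with TMM), with 2477 genes called higher in liver and 9143 in eWAT. The eWAT member median in HF against LF was 0.015 without the hepatocyte-high and -0.0072 without the testis-high libraries, and in HFLF against LF 0.198 and 0.189. Both removals take out LF 3 and keep LF 2, the LF library with the lowest median member. The cause was not tested.

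With the replicate number as a block, 0 members were called in every arm comparison, and 1 gene was called in liver HFLF against LF. Member medians under the block were 0.23 and 0.24 in liver HF and HFLF against LF, and 0.20 in eWAT HFLF against HF. At unadjusted p under 0.05 the block left 1 and 2 members in the liver comparisons. Deviations of same-numbered libraries of different arms correlated from -0.105 to 0.384 in liver and from -0.338 to 0.375 in eWAT. The medians were 0.0848 and 0.0902, beside -0.0413 and -0.0287 for libraries of different numbers. What same-numbered samples share beyond the number was not tested. With the number and arm taken as an animal in both tissues (14 pairs), the estimated correlation was 0.00618 and 33 and 5 members were again called.

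Low counts limit Abcd2, Pdk4 and Cyp4a14 in some liver libraries, and Fabp1, Slc27a2, Bdh1, Creb3l3 and Acot1 in eWAT. The sources used here name no preparation dates.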
